A study of Mus musculus with 6 samples.

Results

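*Nexn*, the gene for nexilin, and 9 genes for its partners at the cardiac Z-disc were followed in hearts that carried a wild-type or a phosphorylation-mimicking nexilin. The 10 members are *Nexn*, *Actn2*, *Ldb3*, *Myoz2*, *Tcap*, *Csrp3*, *Ankrd1*, *Xirp1*, *Xirp2* and *Synpo2l*. They are 10 of the 27307 gene symbols in the annotation deposited with the arrays, chosen with earlier results of these data known. Their probes were found by gene symbol, 17 of the 56605 different probes, and all were kept. 16 of the 17 were well above background on all 6 arrays and entered the test, beside 22998 tested probes in all. The remaining probe, for *Actn2*, was above background on 0 arrays.

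Z-discs anchor the thin filaments of neighbouring sarcomeres and pass force between them. α-actinin 2 crosslinks actin there, PDZ-LIM and calsarcin proteins bind α-actinin, and telethonin caps the N-terminal end of titin. Several Z-disc proteins also sense load or reach the nucleus, and mutations in many of them, nexilin included, cause cardiomyopathy. Nexilin binds actin filaments, and in cardiomyocytes it is also needed for the junctions between the sarcoplasmic reticulum and the T-tubules.

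All 6 mice were male *Clk4*-cKO animals of the C57BL/6J strain. In these mice loxP-flanked *Clk4*, which encodes a CDC-like kinase, is deleted by tamoxifen-induced MerCreMer, a Cre recombinase driven by the α-MHC promoter and therefore active in cardiomyocytes. 3 mice received AAV NEXN-WT and 3 received AAV NEXN-S437E, in which a serine of nexilin is replaced by glutamate. Both vectors were AAV9 with mouse *Nexn* under the CMV promoter, which is not restricted to cardiomyocytes, followed by a P2A-linked GFP. The labels give no age, and hearts without a *Nexn* vector or with intact *Clk4* were not analysed here, so the comparison answers how the mutant differed from the wild-type protein and not what either vector did.

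Myocardial RNA of each mouse was labelled with Cy3 and hybridised to its own 1-colour array, all on 1 slide and in 1 scan. Levels are given as log2 signal minus the 75th percentile of the same array. That percentile was highest on NEXN-WT replicate 1, at 265 signal units, 41.9% to 47.8% of spots were well above background, and 0 spots were saturated. NEXN-WT replicate 1 stood apart: over the member probes it differed from the other arrays by 0.46 to 0.70 on the log2 scale on average, whereas NEXN-WT replicates 2 and 3 differed by 0.14. Slide row 2 held NEXN-S437E replicates 2 and 3, and slide row 1 the remaining 4 arrays. A block for the slide row therefore compares NEXN-S437E replicate 1 alone with the 3 NEXN-WT arrays. The study used 3 animals per group, so n = 3, and an exact permutation test of a single value cannot go below p = 0.1.

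4 probes show what was measured. The *Nexn* probe A_55_P2745249 lies at chr3:151900629-151900688 (mm9, minus strand), is free of stop codons in 2 of 3 forward reading frames, and can bind any *Nexn* transcript that holds this stretch. The other three span introns in the deposited mm9 coordinates and therefore read spliced RNA: *Actn2* A_51_P108266 over 2373 bases at chr13:12364990-12367362, *Csrp3* A_51_P133684 over 1915 bases at chr7:56086063-56087977, and *Myoz2* A_51_P248638 over 7042 bases at chr3:122709486-122716527, all on the minus strand. Each is 60 bases long and is written 5′ to 3′ as deposited, with no part marked.
*Nexn* A_55_P2745249: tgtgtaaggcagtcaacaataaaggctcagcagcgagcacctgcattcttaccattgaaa
*Actn2* A_51_P108266: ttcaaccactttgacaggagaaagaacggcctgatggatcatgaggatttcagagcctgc
*Csrp3* A_51_P133684: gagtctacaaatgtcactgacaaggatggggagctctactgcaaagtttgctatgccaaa
*Myoz2* A_51_P248638: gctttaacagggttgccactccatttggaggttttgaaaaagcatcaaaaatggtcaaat

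At the array scaling given above, the probes of *Tcap*, *Myoz2*, *Csrp3* and *Actn2* had means 1.2- to 1.5-fold higher with NEXN-S437E. The groups overlapped at some of the *Myoz2* and *Actn2* probes, and no *Actn2* probe passed an unadjusted p of 0.05. The *Ankrd1* probe sat 1.61-fold lower, and both *Nexn* probes were level between the groups. None of the 16 tested probes passed the study's threshold of a 2-fold change with an unadjusted p of 0.05, which 2.53% of all tested probes passed. None passed a Benjamini-Hochberg adjusted p of 0.05 in limma either, which 0.17% of all probes did, and the adjusted p of the members ran from 0.212 to 0.984. At an unadjusted p of 0.05 alone, 3 member probes were higher (*Tcap*, *Myoz2* and *Csrp3*) and 1 was lower (*Ankrd1*), beside 10.3% and 6.83% of all probes. In alternative settings that threshold was passed by the *Myoz2* probe in 14 of 20, by *Tcap* in 13 of 19, by *Csrp3* in 5 of 19 and by *Ankrd1* in 17 of 19. The groups did not overlap for 5 probes that were higher and 2 that were lower, beside 18.2% and 9.31% of all probes. The median change was 0.32 on the log2 scale over the member probes and 0.083 over all tested probes. It was 0.17 over the member probes without NEXN-WT replicate 1, and 0.055 under quantile normalization, where that of all probes was 0.024. With the deposited values *Tcap* was at 0.23, the *Myoz2* probes at 0.27, 0.43 and 0.16, *Csrp3* at 0.12 and *Actn2* at 0.055 and 0.029. None of these passed an unadjusted p of 0.05 there (limma), and *Ankrd1* was at -0.93.

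**Figure D1:**
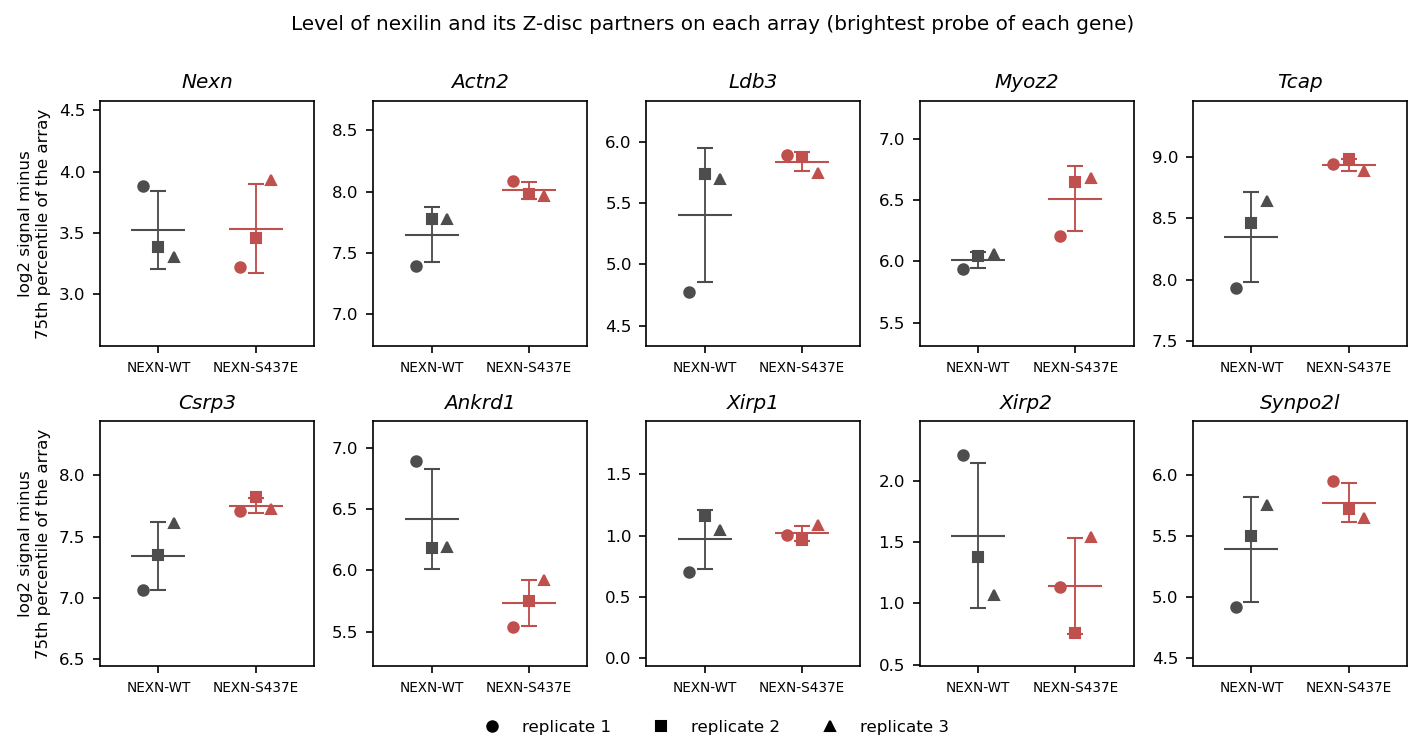
Level of the brightest probe of each gene on the 6 arrays, as log2 signal minus the 75th percentile of the array, on axes that each span 2 log2 units. Points are mice, with the symbol giving the replicate number, and bars are the mean and SD of 3. *Ankrd1* is lower on every NEXN-S437E array and *Tcap*, *Myoz2*, *Csrp3*, *Actn2* and *Ldb3* are higher, while NEXN-WT replicate 1 (dark circle) lies at one end of its group for all 10 genes and the *Nexn* groups overlap.

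*Nexn* itself was measured by 2 probes 559 bases apart on chromosome 3. At the more 3′ probe, A_52_P367520 (chr3:151900010-151900069, mm9), the level was 3.88, 3.38 and 3.30 in the NEXN-WT hearts and 3.22, 3.45 and 3.93 in the NEXN-S437E hearts. The groups covered the same range, with the highest value of each near 3.9. The means were 3.52 ± 0.31 and 3.53 ± 0.36 (SD, n = 3), and the log2 fold change was 0.011 with a 95% interval from -0.53 to 0.55 (limma, adjusted p = 0.984).

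At the *Nexn* probe printed above the levels were 2.79, 2.65 and 2.44 with NEXN-WT and 2.60, 2.53 and 3.14 with NEXN-S437E. NEXN-S437E replicate 3 was the highest of the 6 arrays at both probes, and the groups overlapped at both. The difference was 0.13 with an interval from -0.34 to 0.60 (limma, adjusted p = 0.749). The intervals of both probes leave out a 2-fold difference between the groups in either direction at this scaling. Because both groups received a *Nexn* vector, endogenous and vector-borne transcripts cannot be told apart here, and whether either probe covers the altered codon was not determined. On the same array the more 3′ probe exceeded the other by 1.09, 0.73 and 0.87 with NEXN-WT and by 0.62, 0.93 and 0.78 with NEXN-S437E, so the relation between the 2 probes overlapped between the groups too (exact permutation test, two-sided, p = 0.5).

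*Actn2*, the α-actinin that crosslinks actin in the Z-disc, did not pass a test at either tested probe. A_65_P13435 (chr13:12361696-12361755) gave 7.39, 7.78 and 7.78 with NEXN-WT and 8.09, 7.98 and 7.97 with NEXN-S437E. The groups did not overlap, and the low value of NEXN-WT replicate 1 made up most of the spread. The log2 fold change was 0.36 ± 0.16 (SE, limma, adjusted p = 0.300), and 0.23 without that array. It was 0.025 with quantile normalization, 0.029 with the deposited values and -0.074 relative to the cardiomyocyte markers. The probe that spans an intron gave 5.38, 5.93 and 5.84 against 6.10, 6.01 and 5.86, where the groups overlapped and the difference was 0.28 (limma, adjusted p = 0.448), or 0.11 without NEXN-WT replicate 1.

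*Ldb3* encodes cypher, a PDZ-LIM protein that binds α-actinin. Its probe A_51_P265348 (chr14:35374689-35374748) gave 4.77, 5.73 and 5.70 with NEXN-WT and 5.89, 5.87 and 5.75 with NEXN-S437E. 5 of the 6 arrays lay between 5.70 and 5.89, and NEXN-WT replicate 1 lay well below them. The difference of 0.44 (limma, adjusted p = 0.406) came down to 0.12 without that array. The other probe, A_65_P11603, whose position in the gene is more 3′ (chr14:35340222-35340281), differed by 0.19 with overlapping groups, and by 0.048 without that array.

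*Synpo2l*, which encodes an actin-binding relative of synaptopodin found at the Z-disc, was read in opposite directions by 2 probes that start 104 bases apart on chromosome 14. The signal was 6606 to 8251 units at A_55_P1968863 and only 57.0 to 245 units at A_55_P2743877. A_55_P1968863 gave 4.92, 5.50 and 5.75 with NEXN-WT and 5.95, 5.72 and 5.65 with NEXN-S437E, a difference of 0.38 with overlapping groups, or 0.15 without NEXN-WT replicate 1. A_55_P2743877 gave -0.11, -0.36 and -0.46 against -0.91, -0.58 and -0.49, so that every NEXN-S437E array lay below every NEXN-WT array and the difference was -0.35 (limma, adjusted p = 0.341), or -0.23 without NEXN-S437E replicate 1. The first of them holds an uninterrupted GT repeat of 18 bases, whereas the longest such repeat in any other member probe is 4 bases, and the part of the repeat in this disagreement was not tested. Subtracting one probe from the other within each array gave 5.03, 5.85 and 6.21 with NEXN-WT and 6.86, 6.30 and 6.14 with NEXN-S437E, which overlapped (exact permutation test, two-sided, p = 0.2). Averaging the 2 probes, which gives the dim one equal weight, left a difference of 0.016, so no direction is given for this gene.

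The 3 genes with a probe higher at an unadjusted p of 0.05 encode telethonin, a calsarcin and a LIM protein. *Tcap*, for telethonin, gave 7.93, 8.46 and 8.64 with NEXN-WT and 8.94, 8.98 and 8.89 with NEXN-S437E at A_52_P249733 (chr11:98246127-98246186). All NEXN-S437E hearts lay above all NEXN-WT hearts and within 0.1 of each other. The log2 fold change was 0.59 ± 0.20 (SE), or 1.51-fold (limma, adjusted p = 0.220), and 0.39 without NEXN-WT replicate 1, the lowest array. It was 0.23 both with quantile normalization and with the deposited values. It did not pass an unadjusted p of 0.05 in either, without NEXN-S437E replicate 2, by the methods' t-test or relative to the cardiomyocyte markers.

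*Myoz2* encodes calsarcin-1, which ties calcineurin to α-actinin in the heart. Its brightest probe, A_51_P248638, gave 5.94, 6.04 and 6.06 with NEXN-WT and 6.20, 6.65 and 6.68 with NEXN-S437E. Here the NEXN-WT hearts were within 0.12 of each other, and NEXN-S437E replicate 1 was the nearest to them. The log2 fold change was 0.50 ± 0.17 (SE), or 1.41-fold (limma, adjusted p = 0.223), and 0.46 without NEXN-WT replicate 1. It was 0.27 with quantile normalization, where it did not pass an unadjusted p of 0.05, and 0.19 with the slide row as a block. The other 2 *Myoz2* probes differed by 0.44 and 0.37 with overlapping groups, and by 0.60 and 0.23 without that array.

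*Csrp3*, for muscle LIM protein, a Z-disc protein that can also enter the nucleus, gave 7.06, 7.35 and 7.61 with NEXN-WT and 7.71, 7.82 and 7.72 with NEXN-S437E. The groups were separated by 0.1, between NEXN-WT replicate 3 and NEXN-S437E replicate 1. The log2 fold change was 0.41 ± 0.17 (SE), or 1.33-fold (limma, adjusted p = 0.282). Without NEXN-WT replicate 1 it was 0.27, and with quantile normalization and with the deposited values it was 0.12. It passed an unadjusted p of 0.05 in none of these. Nor did it with the percentile over detected probes, normexp, the replicate block or the methods' t-test.

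*Ankrd1* had the largest difference among the member probes over the 6 arrays, though not in every setting: without NEXN-WT replicate 1, without NEXN-S437E replicate 1 and with array weights, a *Myoz2* probe differed by more. It encodes cardiac ankyrin repeat protein, which sits on titin near the Z-disc, acts as a transcriptional cofactor in the nucleus and is a known load-induced gene of the heart. A_52_P120803 (chr19:36186809-36186868) gave 6.89, 6.18 and 6.19 with NEXN-WT and 5.54, 5.75 and 5.92 with NEXN-S437E. Every NEXN-S437E heart lay below every NEXN-WT heart, and NEXN-WT replicate 1 was the highest. The log2 fold change was -0.68 ± 0.22 (SE), with a 95% interval from -1.20 to -0.17 (limma, adjusted p = 0.212). Without NEXN-WT replicate 1 it was -0.45 (limma, adjusted p = 0.298). With the slide row as a block, which compares NEXN-S437E replicate 1 with the 3 NEXN-WT arrays of its row, it was -0.88.

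The promoter window of *Ankrd1* is shown because this gene was lower in every setting run on it and lay on the other side of 0 from *Tcap*, *Myoz2*, *Csrp3* and *Actn2* with the 75th percentile scaling. The window runs from 250 bases before to 50 bases after the RefSeq start (GRCm38.p6, chr19:36119795-36120094, minus strand). Capitals mark matches on either strand to 6 motifs that were searched, the TATA box TATAAA, the M-CAT element CATTCC, the GATA motif AGATAA, the NKX2-5 motif CAAGTG, the E-box CAGCTG and the MEF2 motif TAAAAATA.
*Ankrd1* promoter: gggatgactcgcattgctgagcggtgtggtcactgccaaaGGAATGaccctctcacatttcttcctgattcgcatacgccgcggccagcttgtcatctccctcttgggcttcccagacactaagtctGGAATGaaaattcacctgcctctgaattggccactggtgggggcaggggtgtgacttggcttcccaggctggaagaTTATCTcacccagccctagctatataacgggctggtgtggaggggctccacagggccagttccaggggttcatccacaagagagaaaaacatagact
M-CAT letters stand in it at 2 places and GATA letters at 1, all on the reverse strand. Of the 10 windows that RefSeq gives for 7 members (*Actn2*, *Ankrd1*, *Csrp3*, *Ldb3*, *Myoz2*, *Synpo2l* and *Xirp2*), that of *Ankrd1* was alone in holding either, whereas 14.7% and 11.2% of all 32851 promoter windows hold them. The E-box letters were found for *Myoz2* and *Synpo2l* and the MEF2 letters for *Synpo2l* and *Xirp2*, beside 16.3% and 2.72% of all windows. The TATA box and NKX2-5 letters stood in 0 of the 10 windows, beside 13.6% of all windows each. A match here is only a run of letters in the window. Only the exact letters were searched, so a window without a match may still hold a variant of the motif.

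*Xirp1* and *Xirp2* encode the Xin proteins, actin-binding proteins of intercalated discs and Z-discs. *Xirp1* gave 0.70, 1.16 and 1.04 with NEXN-WT and 1.01, 0.97 and 1.08 with NEXN-S437E, a difference of 0.048 (limma, adjusted p = 0.893). *Xirp2* gave 2.21, 1.38 and 1.07 against 1.14, 0.76 and 1.54, a difference of -0.41 (limma, adjusted p = 0.514). The groups overlapped for both, and without NEXN-WT replicate 1, the highest array for *Xirp2*, its difference was -0.077.

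**Figure D2:**
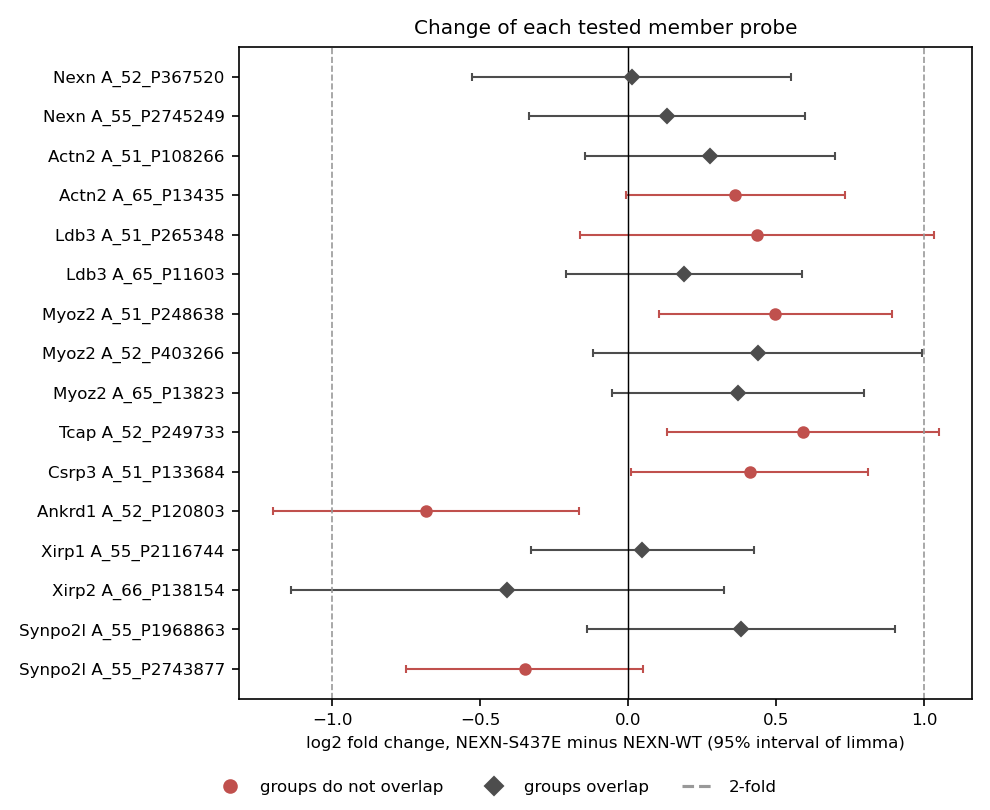
Log2 fold change of NEXN-S437E over NEXN-WT for each of the 16 tested probes, with the 95% interval of limma (n = 3 arrays per group). Circles mark probes whose groups do not overlap, diamonds those that do, and dashed lines a 2-fold change. No point reaches the 2-fold lines, *Ankrd1* lies farthest from 0 at -0.68, and the 2 probes of *Synpo2l* lie on opposite sides.

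With the 75th percentile, 13 of the 16 member probes were higher with NEXN-S437E and 3 lower. With quantile normalization and with the deposited values 12 were higher, and with the percentile over detected probes and with normexp 11 were. Of all tested probes 60.3% were higher with the 75th percentile, and 53.2%, 53.2%, 51.3% and 64.1% with those 4 alternatives in the same order. The 10 cardiomyocyte markers (*Myh6*, *Tnnt2*, *Tnni3*, *Actc1*, *Myl2*, *Myl3*, *Ryr2*, *Pln*, *Atp2a2* and *Ttn*) were higher as well, 10 of 10, with a median of 0.42. Their summed signal, in multiples of the percentile, ran from 2096 to 2736 with NEXN-WT and from 3221 to 3359 with NEXN-S437E. The fibroblast markers had lower means, 8 of 8, with sums of 649 to 1052 against 460 to 498, and the groups overlapped for *Dcn* and *Tcf21*. NEXN-WT replicate 1 gave the highest fibroblast sum, 1052, and the lowest cardiomyocyte sum, 2096. NEXN-WT replicates 2 and 3, at 649 and 702 for fibroblasts and at 2731 and 2736 for cardiomyocytes, still did not overlap with the NEXN-S437E arrays. Of 5 tested T cell markers 4 were lower, with sums over the list of 2.60 to 3.58 against 1.36 to 1.499, *Cd3d* by -2.49 (limma, adjusted p = 0.0222) and *Lck* by -2.07 (limma, adjusted p = 0.0187). *Cd3g* was well above background only on the 3 NEXN-WT arrays. Of the 2 tested B and plasma cell markers, *Jchain* was well above background only on those 3 arrays, and *Mzb1* differed by 0.15 with overlapping groups. The part of these cells in the member differences was not tested. In bulk myocardium, fewer cells of a type and less RNA per cell cannot be told apart.

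Centring each array on the median of the cardiomyocyte markers states each change relative to them. It subtracts one value per array, so it moves the change of every probe alike, by -0.44, and the signs that turn follow from that shift. Relative to the markers 3 of the 16 probes were higher and 13 lower, with a median of -0.12, and 11.7% of all tested probes were higher. *Tcap* was then at 0.15, the *Myoz2* probes at 0.06, 0.0017 and -0.066, *Csrp3* at -0.026 and *Actn2* at -0.074 and -0.16. *Ankrd1* was at -1.12 (limma, adjusted p = 0.0859). Quantile normalization, which gives all arrays one distribution and moved the median of all probes by -0.059, kept *Ankrd1* at -0.93. It left *Tcap* at 0.23, the brightest *Myoz2* probe at 0.27, *Csrp3* at 0.12 and the brighter *Actn2* probe at 0.025. Under it no member probe was higher at an unadjusted p of 0.05. *Ankrd1* was lower in all 19 alternative settings run on it, from -1.12 to -0.37.

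**Figure D3:**
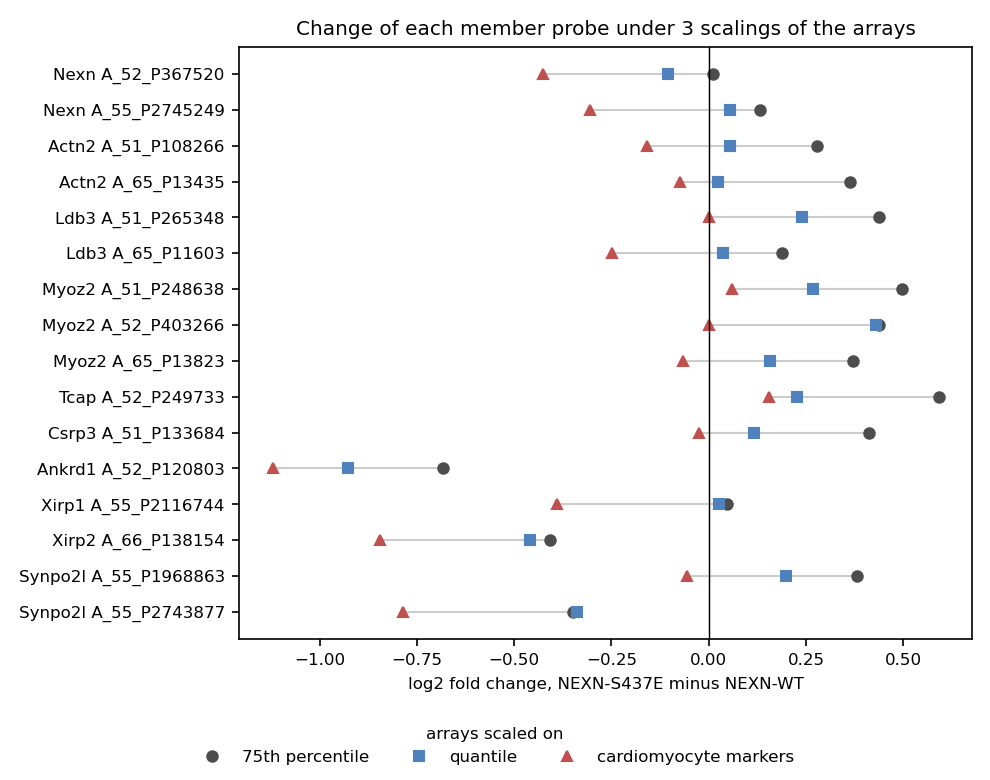
Log2 fold change of NEXN-S437E over NEXN-WT for each of the 16 tested probes when the arrays were scaled on their 75th percentile (circles), by quantile normalization (squares) or on the median of 10 cardiomyocyte markers (triangles). The *Tcap*, *Csrp3* and *Actn2* probes come close to 0 under the markers, with *Tcap* at 0.15, while *Ankrd1* lies below 0 under all 3. The triangles lie the same distance, 0.44, to the left of the circles for every probe.

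A difference between 2 probes of the same array needs no scaling, so each gene was also set against the brightest *Actn2* probe. Only how this difference varied between arrays is read, not its size, which depends on the probes. *Ankrd1* minus *Actn2* was -0.50, -1.60 and -1.59 with NEXN-WT and -2.55, -2.23 and -2.05 with NEXN-S437E. All NEXN-S437E arrays were below all NEXN-WT arrays, and the group means differed by -1.05 (exact permutation test, two-sided, p = 0.1, the smallest possible, and 0.45 after Benjamini-Hochberg adjustment over the 9 genes). Without NEXN-WT replicate 1 the difference was -0.68, still without overlap.

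*Xirp1* minus *Actn2* was -6.69, -6.62 and -6.73 with NEXN-WT and -7.08, -7.02 and -6.88 with NEXN-S437E, again without overlap, with a difference of -0.31 (exact permutation test, two-sided, p = 0.1 and 0.45 after adjustment). The level of *Xirp1* itself differed by 0.048 with overlapping groups, and that of the *Actn2* probe by 0.36. The other 7 genes overlapped between the groups when set against *Actn2*. *Xirp2* differed most among them, by -0.77, and by -0.31 without NEXN-WT replicate 1. The difference in means was 0.23 for *Tcap*, 0.13 for *Myoz2* and 0.048 for *Csrp3*, and without NEXN-WT replicate 1 it was 0.15, 0.23 and 0.037. *Nexn* minus *Actn2* was -3.51, -4.40 and -4.47 with NEXN-WT and -4.87, -4.53 and -4.04 with NEXN-S437E, a difference of -0.35 that came down to -0.042 without NEXN-WT replicate 1. *Ldb3* minus *Actn2* differed by 0.074 over all arrays and by -0.11, without overlap, when that array was left out.

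**Figure D4:**
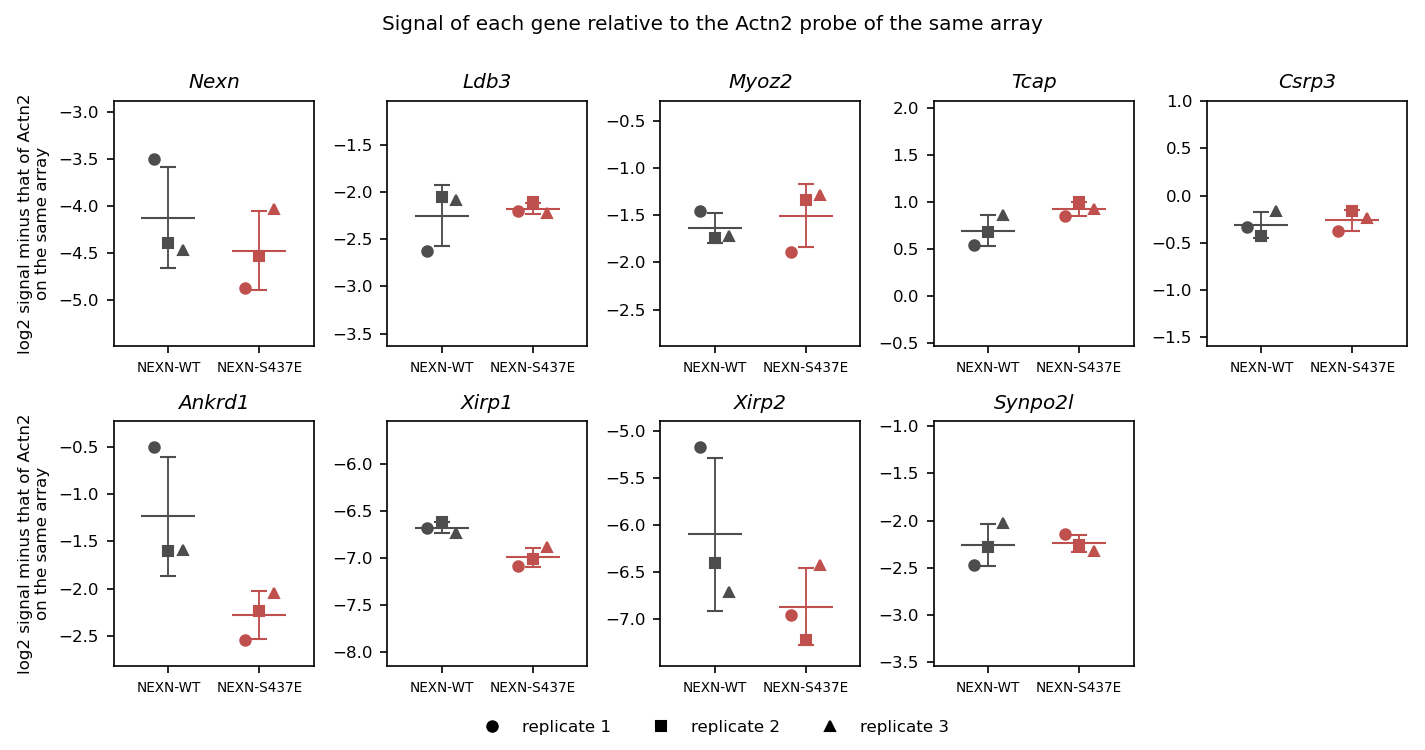
Log2 signal of the brightest probe of each of 9 genes minus that of the *Actn2* probe on the same array, with no scaling between arrays, on axes that each span 2.6 log2 units. Points are mice and bars the mean and SD of 3. Relative to *Actn2*, *Ankrd1* and *Xirp1* are lower on all NEXN-S437E arrays and the other 7 genes overlap, while the level of *Xirp1* itself differed by 0.048 and that of *Actn2* by 0.36.

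Among 46 other Z-disc genes, taken as 1 probe per gene, 43 were tested and *Myoz1*, *Myoz3* and *Ankrd2* were not above background. 0 were higher and 2 were lower past 2-fold with an unadjusted p of 0.05, beside 0.764% and 2.18% of all 13747 genes. Their median change was 0.16, that of the 10 members by their brightest probe 0.37, and that of all genes 0.068. The 2 genes are *Pdlim3* and *Csrp2*. They are listed with 7 other LIM proteins, and of these 9 genes 4 were higher and 5 lower, with a median of -0.022. *Fhl2* and *Lmcd1* were higher without overlap, by 0.40 and 0.31 (limma, adjusted p = 0.309 and 0.372). Besides *Pdlim3* and *Csrp2*, *Pdlim7* and *Fhl1* were lower without overlap, at -0.75 and -0.21 (limma, adjusted p = 0.142 and 0.468). *Pdlim3*, an α-actinin-binding relative of *Ldb3*, gave 3.57, 2.99 and 2.76 with NEXN-WT and 2.22, 1.78 and 1.83 with NEXN-S437E, a log2 fold change of -1.16 (limma, adjusted p = 0.109).

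*Csrp2*, the relative of *Csrp3* best known from smooth muscle and stellate cells, gave 5.30, 4.50 and 4.55 against 3.93, 3.64 and 3.66, a log2 fold change of -1.04 (limma, adjusted p = 0.132). The groups overlapped for neither gene. Without NEXN-WT replicate 1, which was the highest array for both, the changes were -0.93 and -0.78 and neither reached 2-fold. *Csrp3* and *Csrp2* therefore lay on opposite sides of 0 with the 75th percentile scaling, at 0.41 and -1.04. The means of the 8 fibroblast markers given above were lower too, with overlapping groups for *Dcn* and *Tcf21*. The 6 smooth muscle and pericyte markers had a median of -0.22, and the groups overlapped for all but *Pdgfrb*. The part of other cell types in these differences was not tested.

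The annotation attaches the Gene Ontology term Z disc to 8 of the 10 members, all but *Ankrd1* and *Xirp1*. Of 93 other tested genes with this term, 0 were higher and 4 were lower past the same threshold, beside the 0.764% and 2.18% of all genes given above, and their median change was 0.18. The 4 are *Myh7*, *Pdlim3*, *Pak1* and *Ahnak2*. *Pak1* was well above background on the 3 NEXN-WT arrays and on 1 NEXN-S437E array and so passed the filter only through the group where it was high, with signals of 69.9, 39.2 and 34.0 units with NEXN-WT and of 15.9, 11.6 and 16.7 units with NEXN-S437E. *Myh7*, for the slow β-myosin heavy chain of the thick filament, is also one of the fetal genes used as markers of cardiac stress.

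*Ankrd1* was followed beside 4 such stress markers. *Nppa*, for atrial natriuretic peptide, gave 8.82, 8.61 and 8.81 with NEXN-WT and 7.60, 7.14 and 7.31 with NEXN-S437E, a log2 fold change of -1.40 (limma, adjusted p = 0.0268). Its adjusted p ranged from 0.000842 to 0.317 over the 20 alternatives and was above 0.05 in several. Among them were quantile normalization at 0.0520 (limma), the methods' t-test at 0.317 and 5 of the 6 arrays left out, at 0.0535 to 0.151 (limma). *Myh7* differed by -2.33 (limma, adjusted p = 0.0794) and *Acta1*, skeletal α-actin, by -1.29 (limma, adjusted p = 0.142), both past 2-fold and without overlap. *Acta1* was at -0.99 without NEXN-WT replicate 2, short of 2-fold, and at -1.05 with the slide row block. The brightest *Nppb* probe differed by 0.031 with overlapping groups, and averaging the probes of *Nppb* turned that to -0.38. *Ankrd1* lay on the same side of 0 as *Nppa*, *Myh7* and *Acta1*. Of 4 atrial cardiomyocyte markers *Sln*, *Myl7* and *Bmp10* did not pass the filter on background. *Myl4*, an atrial myosin light chain, gave 2.27, 1.65 and 1.72 with NEXN-WT and 1.56, 1.01 and 1.19 with NEXN-S437E, a difference of -0.63 without overlap (limma, adjusted p = 0.229). The part of atrial tissue in these differences was not tested.

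The genes whose pattern over the 6 arrays was most like that of the brighter *Nexn* probe were *Dapp1*, *Hsp90b1*, *Zfr*, *Rbm48* and *Hltf*. Likeness was the root mean square difference between values centred on their own mean, which was 0.069 for *Dapp1* and 0.10 for *Hltf*, with a median of 0.38 over 13738 genes. The *Nexn* values themselves had a root mean square of 0.28 around their mean. No other member was near the top of that order: *Xirp2* came closest at 0.32, in place 3936, and *Ldb3* was farthest at 0.59, in place 12538. As a description over 6 arrays, *Nexn* was high in NEXN-WT replicate 1 and NEXN-S437E replicate 3, whereas *Actn2*, *Ldb3*, *Myoz2*, *Tcap*, *Csrp3*, *Xirp1* and *Synpo2l* were lowest, by their brightest probe, in NEXN-WT replicate 1.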

How the data were processed

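RNA from 6 hearts was measured on Agilent 1-colour arrays. The authors scanned them and, per the labels, extracted them with Agilent Feature Extraction 10.7.1.1, which subtracts background; the deposited array files hold linear intensities. The authors also deposited a series table with log2 values whose 6 columns have identical distributions, as quantile normalization gives; its software is not given in the sources used here, and probe coordinates are on mm9. Levels here are log2 intensities less the 75th percentile of the array, without control and outlier spots and averaged over the spots of a probe. A probe was tested if every array of one group or the other had it well above background (22998 probes). Groups and replicate numbers came from the sample titles. NEXN-S437E was compared with NEXN-WT by limma 3.58.1 (lmFit and eBayes, two-sided, no covariates) in R 4.3.3, with Benjamini-Hochberg adjustment over all tested probes. A call needed either an adjusted p below 0.05 or, following the study, a change of 2-fold with p below 0.05 before adjustment. A gene with several probes was represented by its brightest one, or all were given.

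The rule for named genes covered all members, the other Z-disc genes of a fixed list past 2-fold and an unadjusted p of 0.05, 4 stress markers and the 5 genes most like *Nexn*. Marker genes named beside a result come from fixed cell type lists. The Gene Ontology count with its called genes, the differences against *Actn2* (also without NEXN-WT replicate 1), the markers given singly, the LIM genes named short of 2-fold and the choice of sequences were added after values had been seen. The members and lists were chosen with earlier results of these data known. Alternatives were quantile normalization, the percentile over detected probes, normexp (offset 50), the deposited log2 values, centring on cardiomyocyte markers, array weights, eBayes with a trend on intensity, blocks for replicate number or slide row, the methods' t-test, leaving out single arrays, outlier spots kept, no filter or one on all 6 arrays, a 1.5-fold threshold and the mean of a gene's probes. The test was tried on simulated data. With intensities there are no counts, and the number of arrays limits the precision. Promoter windows are from RefSeq (GRCm38.p6), 7 of 10 members matched, and probes were placed in no exon or UTR. Figures were drawn with Python 3.11.15 and matplotlib 3.10.9.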

Additional observations from a re-analysis of the deposited data

How the results depend on the processing

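The count of 0 member probes past 2-fold with an unadjusted p of 0.05 became 1 when arrays were centred on cardiomyocyte markers (*Ankrd1*) and 2 at a 1.5-fold threshold (*Ankrd1* and *Tcap*), and ran from 0 to 0 over the arrays left out. The count of 0 past an adjusted p of 0.05 became 3 with array weights (*Myoz2*, *Tcap* and *Csrp3*), a setting that called 4175 probes in all against 39, and was 0 under every other setting. At an unadjusted p of 0.05 it was 4 probes in limma, and 1 by the methods' t-test. The 2 other Z-disc genes became 5 under the marker centring, 1 with array weights and 4 at 1.5-fold, and ran from 0 to 2 over the arrays left out. With the slide row block *Pdlim3* was at -0.89 and *Csrp2* at -0.85, both short of 2-fold.

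These differences changed sign. For *Nexn* A_52_P367520 they were -0.10 with quantile normalization and with the deposited values, -0.062 with the percentile over detected probes, -0.17 with normexp, -0.43 with marker centring, -0.30 with the slide row block, and -0.19 to 0.19 over the arrays left out. For *Nexn* A_55_P2745249 they were -0.017 with normexp, -0.30 with marker centring, -0.025 with the slide row block, and -0.062 to 0.25 over the arrays left out. *Xirp1* was -0.025 with the percentile over detected probes, -0.39 with marker centring, -0.092 with array weights, and -0.085 to 0.14 over the arrays left out. Marker centring also turned *Actn2* (-0.16 and -0.074), *Ldb3* (-2.9e-05 and -0.25), *Myoz2* A_65_P13823 (-0.066), *Csrp3* (-0.026) and *Synpo2l* A_55_P1968863 (-0.055). *Nppb* was -0.25 with quantile normalization and with the deposited values, -0.042 with the percentile over detected probes, -0.16 with normexp, -0.41 with marker centring, -0.21 with the slide row block, -0.38 with the mean of its probes, and -0.072 to 0.15 over the arrays left out. The turns under marker centring follow from its uniform shift of -0.44, and the cause of the others was not tested.

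The replicate numbers did not pair the samples: deviations of same-numbered arrays correlated at -0.15, -0.028 and -0.18. With the replicate block, 0 member probes passed either threshold and 2 other Z-disc genes passed the 2-fold threshold. Each replicate number holds 1 array of each group, so this block cannot move a difference, only its p. The adjusted p of *Ankrd1* was 0.318 (limma). The adjusted p of *Nppa* was then 0.0593. Of the named differences under the alternatives, 381 kept direction and side of the study's 2-fold threshold with its unadjusted p. Another 34 reversed, 9 fell below that threshold and 1 passed it. Crossings of the adjusted p threshold, such as those of *Myoz2*, *Tcap* and *Csrp3* with array weights and of *Nppa*, were not counted here. With 3 arrays per group, the 95% interval of 12 of the 16 member probes included 0, and dim probes such as *Myoz2* A_52_P403266 have less signal over background.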
